A study of Sus scrofa with 5 samples.

Results

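CDX2, GATA2, GATA3, TFAP2A, TFAP2C, ELF5, EOMES and HAND1 are DNA-binding transcription factors that are used as markers or regulators of the trophectoderm (TE). These 8 genes were chosen by name, and they are 8 of the 30029 genes in the UMI count matrices of porcine blastoids and 8 of the 29886 gene symbols in the FPKM table of porcine embryonic stem cells (pESCs). Blastoids are blastocyst-like structures grown from stem cells. The study derived pESCs from parthenogenetic blastocysts, kept them in 4FIXY medium over a feeder layer of mouse fibroblasts, and turned them into blastoids in suspension. The Wnt pathway inhibitor IWR1 was withdrawn while the cells aggregated (4FXY medium), and iBlastoid medium was used after that. At day 6, blastoids showing a cavity together with epiblast-like and TE-like parts were selected by hand. Their cells gave 2 single-cell libraries (blastoid 1 and blastoid 2), and 3 bulk libraries of pESCs were made from polyA RNA. No embryo cells were analysed here, so none of the levels below has an embryo beside it.

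The trophectoderm is the outer epithelium of the blastocyst, which pumps the fluid of the cavity and gives rise to the trophoblast of the placenta. In the mouse, Cdx2 and Eomes act early in it and Elf5 keeps trophoblast stem cells, and GATA2, GATA3, TFAP2A and TFAP2C act together in the human trophoblast lineage. None of the 8 factors is restricted to this tissue. TFAP2A and GATA3 also act in surface ectoderm and amnion, HAND1 in amnion, extraembryonic mesoderm and heart, EOMES in the primitive streak, CDX2 in the hindgut and posterior mesoderm, and TFAP2C in the germ line and pluripotent cells.

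In the Sscrofa11.1 (susScr11) annotation CDX2 lay at chr11:5339727-5346081 on the minus strand, GATA2 at chr13:71981139-71997626 on the plus strand, GATA3 at chr10:63367684-63397977 on the minus strand and TFAP2A at chr7:7221654-7244626 on the minus strand. TFAP2C lay at chr17:57164400-57174923 on the plus strand, ELF5 at chr2:26443979-26486802 on the plus strand, EOMES at chr13:14209590-14216184 on the minus strand and HAND1 at chr16:68679977-68683346 on the plus strand. The 250 bases before each gene's start were searched on both strands for letters that AP-2, GATA and TEAD factors are known to bind, because the genes themselves encode AP-2 and GATA factors. The AP-2 letters GCCNNNGGC were found in 2 of the 8 promoters (CDX2 and HAND1) and in 21.5% of 20638 promoters, the TEAD letters GGAATG in 1 of 8 (GATA3) and 10.4% of all, and the GATA letters AGATAA in 0 of 8 and 8.64% of all. None of the 3 sets of letters overlaps another. The 3 promoters with a match read as follows, 5′ to 3′ on the strand of the gene with the matched letters in capitals, at chr11:5346082-5346331 (CDX2, minus strand), chr16:68679727-68679976 (HAND1, plus strand) and chr10:63397978-63398227 (GATA3, minus strand, where the TEAD letters read on the other strand). A match here is a description of the letters and no evidence of binding.

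CDX2: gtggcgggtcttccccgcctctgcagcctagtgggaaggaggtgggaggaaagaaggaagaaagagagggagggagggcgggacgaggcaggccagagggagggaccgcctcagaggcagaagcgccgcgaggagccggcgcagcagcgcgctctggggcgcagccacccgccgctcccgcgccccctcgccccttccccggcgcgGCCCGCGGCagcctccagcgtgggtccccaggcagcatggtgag

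HAND1: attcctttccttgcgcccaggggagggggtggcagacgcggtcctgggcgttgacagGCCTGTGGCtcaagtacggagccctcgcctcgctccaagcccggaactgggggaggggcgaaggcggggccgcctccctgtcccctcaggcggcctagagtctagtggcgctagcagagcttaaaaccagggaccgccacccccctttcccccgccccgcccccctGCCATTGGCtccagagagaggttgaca

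GATA3: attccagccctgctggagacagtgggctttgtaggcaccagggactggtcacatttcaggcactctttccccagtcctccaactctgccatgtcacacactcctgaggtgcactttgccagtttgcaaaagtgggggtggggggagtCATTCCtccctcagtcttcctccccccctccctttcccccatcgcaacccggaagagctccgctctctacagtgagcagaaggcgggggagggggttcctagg

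Barcodes with at least 11223 UMIs in blastoid 1 or 9805 in blastoid 2 were taken as cells, which gave 7369 and 8175 cells with a median of 29728 and 27588 UMIs and 87.8% and 87.7% of all UMIs. The libraries shared 9 cell barcodes (0.122% and 0.110% of their cells). A unique molecular identifier (UMI) marks 1 captured RNA molecule, and levels are given as CPM, the counts of a gene scaled to the total UMIs of a group of cells. For shares of cells, each cell was thinned at random to 9800 UMIs so that depth was equal. Cells were grouped by 6 genes that are not among the 8 factors: POU5F1 (pluripotency), GABRP (a GABA receptor subunit found in amnion and trophoblast), TP63 (basal epithelium), ISG15 (interferon response), PAX6 (neural and placode cells) and COL3A1 (a collagen of mesenchyme). A cell passed a gate when its thinned count reached 2 UMIs and also the 99th percentile of that gene in its library divided by 5, and cells that passed exactly 1 gate formed the group of that gene. In blastoid 1 and 2, 690 and 1167 cells were POU5F1-gated, 817 and 801 GABRP-gated, 850 and 752 TP63-gated, 209 and 237 ISG15-gated, 308 and 392 PAX6-gated and 440 and 333 COL3A1-gated. A further 828 and 811 cells passed several gates and 3227 and 3682 passed none. The COL3A1-gated cells were shallower (median 22055.5 and 19196 UMIs) and the POU5F1-gated cells deeper (38291 and 34142) than the others.

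Over all cells the factors fell into common and rare ones. TFAP2A was detected in 80.3% and 77.1% of cells of blastoid 1 and 2, GATA3 in 60.4% ± 1.12 (mean and SD, n = 2 libraries), ELF5 in 41.3% ± 1.62, GATA2 in 38.4% ± 1.15, HAND1 in 33.3% ± 6.07 and TFAP2C in 26.4% ± 0.261. EOMES was detected in 1.85% ± 0.146 and CDX2 in 0.810% ± 0.204. Both rare factors had low totals, with 221 and 251 UMIs of CDX2 and 755 and 732 UMIs of EOMES in blastoid 1 and 2. HAND1 differed most between the libraries, with 132 and 88.3 CPM, while CDX2 (0.870 and 0.947 CPM) was close in both. Free RNA can give UMIs in cells that do not express a gene. In droplets of 10 to 100 UMIs, TFAP2A stood at 189 CPM, GATA3 at 77.3, GATA2 at 53.9, ELF5 at 61.9, TFAP2C at 46.3, HAND1 at 123, EOMES at 3.23 and CDX2 at 1.37. The droplets thus held the same 6 common factors as the cells, with TFAP2A at 276 and HAND1 at 110.1 CPM over all cells. By the mean of 2 libraries, HAND1, TFAP2C (40.5 CPM), EOMES (2.87 CPM) and CDX2 (0.909 CPM) were lower over all cells than in the droplets. The droplet levels of the rare factors rested on 5 and 8 UMIs of EOMES and 1 and 5 of CDX2. How much of the low shares below came from this RNA was not tested.

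**Figure D1:**
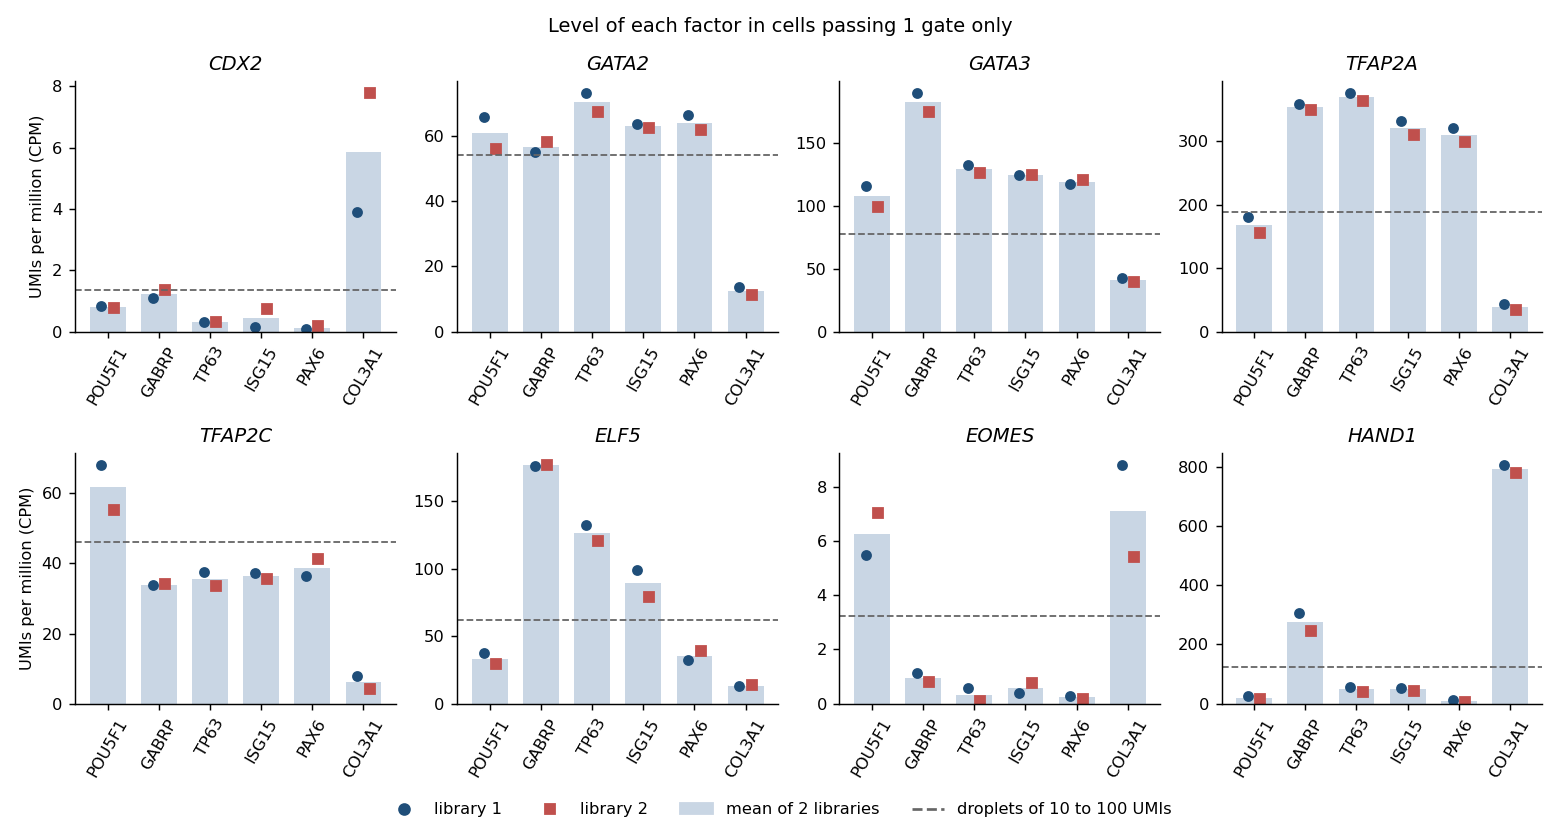
Level of each of the 8 factors (CPM, linear axis from 0) in cells that passed exactly 1 of 6 gates. Points are the 2 blastoid libraries, bars their means and dashed lines the level in droplets of 10 to 100 UMIs. GATA2, GATA3, TFAP2A, TFAP2C and ELF5 were lowest in COL3A1-gated cells, where HAND1 and CDX2 were highest.

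For the tests, UMIs were summed per library and gate and each gate was compared with the mean of the other 5 on the log scale with edgeR's quasi-likelihood test and Benjamini-Hochberg adjustment over 17093 genes, which included all 8 factors. These contrasts share sums, so calls for one gate and another are not independent. The labels do not say that the libraries came from separate cultures, so p-values measure only the spread between 2 libraries, which may be technical. Because the COL3A1-gated cells differed from each other group in every factor, except from POU5F1-gated cells in EOMES, values are also given with the COL3A1 sums left out of the mean of the other gates, an alternative chosen after seeing the data.

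GATA2 and GATA3 are zinc finger proteins that bind the same GATA letters. GATA3 was at 189.8 and 175 CPM in GABRP-gated cells of blastoid 1 and 2, at 132 and 126 in TP63-gated, 124 and 125 in ISG15-gated, 117 and 121 in PAX6-gated, 116 and 99.3 in POU5F1-gated and 42.8 and 39.1 in COL3A1-gated cells. The GABRP-gated sums were above all others, the COL3A1-gated sums below all others, and the other 4 groups lay between 99.3 and 132 CPM. Among these 4, GATA3 was lower in POU5F1-gated than in TP63-gated (−0.32, adjusted p = 0.00120) and ISG15-gated cells (−0.32, adjusted p = 0.00343), and the other 4 pairs were not called. GATA3 was higher in GABRP-gated cells (log2 fold change 1.09 ± 0.050, SE, adjusted p = 2.21e-10, and 0.80 with COL3A1 left out of the mean) and lower in COL3A1-gated cells (−1.62 ± 0.070, adjusted p = 5.60e-11). Small higher calls in TP63-gated (0.29) and ISG15-gated cells (0.28) turned to −0.04 in each and were no longer called when COL3A1 was left out, and the ISG15 call was also lost without either of its own sums (0.28 in each case). In POU5F1-gated and PAX6-gated cells GATA3 was not called against the mean of 5 (−0.09 and 0.06) and was lower against the mean of 4 (−0.43 and −0.28). With sums scaled by total UMIs alone it was called higher in PAX6-gated cells against the mean of 5 (0.18). The call there thus depended on the scaling, and the direction on the groups in the mean.

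GATA2 was at 73.1 and 67.4 CPM in TP63-gated cells, 66.4 and 61.7 in PAX6-gated, 63.6 and 62.4 in ISG15-gated, 65.9 and 55.8 in POU5F1-gated, 55.0 and 58.1 in GABRP-gated and 13.7 and 11.3 in COL3A1-gated cells. The COL3A1 group lay apart from the other 5, whose values were close together. No pair of neighbours in this order was called among the 5 groups, with the widest difference between TP63-gated and PAX6-gated cells (0.21 on the log2 scale, approximate 95% interval from the SE 0.05 to 0.37, adjusted p = 0.0691), and 1 of all 10 pairs among them was called. GABRP-gated cells were lowest of the 5 by CPM, but in the fit, whose TMM factors rescale the sums, POU5F1-gated cells were lower by 0.12, which was not called. Against COL3A1-gated cells GATA2 was higher by 2.27 (2.06 to 2.48) in GABRP-gated cells. Higher calls against the mean of 5 in the POU5F1, GABRP, ISG15 and PAX6 groups (0.31, 0.46, 0.50 and 0.37) became −0.15, 0.0021, 0.05 and −0.08 against the mean of 4, none of them called.

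TFAP2A and TFAP2C are AP-2 factors, close relatives that bind the same palindrome. TFAP2A was at 376 and 364 CPM in TP63-gated cells, 358 and 349 in GABRP-gated, 332 and 310.0 in ISG15-gated and 322 and 299 in PAX6-gated cells. It was at 181 and 155 CPM in POU5F1-gated and at 44.2 and 34.3 in COL3A1-gated cells, below every sum of the other 4 groups. TFAP2A was detected in 95.9% ± 0.264 of TP63-gated, 62.8% ± 6.06 of POU5F1-gated and 13.9% ± 3.87 of COL3A1-gated cells. It was lower in POU5F1-gated (−0.49 ± 0.062, adjusted p = 1.12e-05) and COL3A1-gated cells (−2.84 ± 0.083, adjusted p = 6.96e-13) and higher in TP63-gated (0.95), GABRP-gated (1.07) and ISG15-gated cells (0.76). With COL3A1 left out of the mean, the value in POU5F1-gated cells became −1.10 and those in TP63-gated and GABRP-gated cells 0.39 and 0.52, all called, while the call in ISG15-gated cells was lost and that in PAX6-gated cells (0.55) turned to −0.02 and was lost.

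TFAP2C had another order. It was at 68.1 and 55.3 CPM in POU5F1-gated cells, where TFAP2A was low. In all 8 sums of the GABRP, TP63, ISG15 and PAX6 groups it was between 33.6 and 41.4 CPM. These sums lay below its level in the droplets of few UMIs (46.3 CPM). In COL3A1-gated cells it was at 7.82 and 4.31 CPM. It was detected in 39.2% ± 6.31 of POU5F1-gated cells, in 24.4% to 27.6% of the 4 middle groups and in 3.17% ± 0.660 of COL3A1-gated cells. With the cells of highest doublet score left out, the last share was 1.81% (1.72% and 1.90%), and in the same cells TFAP2A was found in 9.32% beside 13.9%, GATA2 in 5.18% beside 7.55% and ELF5 in 3.96% beside 5.81%, while HAND1 stayed at 93.5% beside 92.2%. TFAP2C was higher in POU5F1-gated cells against the mean of 5 (1.17 ± 0.085, adjusted p = 3.65e-08) and of 4 gates (0.68), and lower in COL3A1-gated cells (−2.61 ± 0.158, adjusted p = 2.57e-09). None of the neighbours among the 4 middle groups was called. In the GABRP, TP63, ISG15 and PAX6 groups small higher calls against the mean of 5 (0.41, 0.29, 0.39 and 0.35) turned to −0.12, −0.24, −0.14 and −0.18 against the mean of 4, none of them called.

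ELF5, an ETS factor of epithelia and trophoblast, was at 176 and 177 CPM in GABRP-gated cells and at 132 and 120.2 in TP63-gated cells. It was at 98.9 and 79.3 CPM in ISG15-gated, 32.1 and 38.8 in PAX6-gated, 37.3 and 29.5 in POU5F1-gated and 13.3 and 13.5 in COL3A1-gated cells. The GABRP, TP63 and ISG15 groups did not overlap, the PAX6 and POU5F1 groups did, and the COL3A1 group lay below all of them. Each step of this order was called except that between PAX6-gated and POU5F1-gated cells (0.07, 95% interval −0.16 to 0.31). ELF5 was higher in GABRP-gated (2.16 ± 0.074, adjusted p = 9.05e-12), TP63-gated (1.37) and ISG15-gated cells (0.83) and lower in POU5F1-gated (−1.001), PAX6-gated (−0.91) and COL3A1-gated cells (−2.44). All 5 of these calls outside the COL3A1 group held with COL3A1 left out of the mean (1.74, 0.92, 0.35, −1.55 and −1.46).

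HAND1, a basic helix-loop-helix factor of trophoblast, amnion and heart, was at 805 and 777 CPM in COL3A1-gated cells and at 307 and 244 in GABRP-gated cells. It was at 56.3 and 40.7 CPM in TP63-gated, 54.3 and 43.7 in ISG15-gated, 24.4 and 16.9 in POU5F1-gated and 11.7 and 6.91 in PAX6-gated cells. The levels ran over an 84.9-fold range of means, and only the TP63 and ISG15 groups overlapped. Blastoid 1 was above blastoid 2 in all 6 groups, and TP63-gated and ISG15-gated cells changed places between the libraries. HAND1 was higher in COL3A1-gated cells (4.30 ± 0.108, adjusted p = 1.55e-13) and GABRP-gated cells (2.60 ± 0.113, adjusted p = 1.18e-10, and 3.60 against the mean of 4) and lower in POU5F1-gated (−2.17) and PAX6-gated cells (−3.58). Lower calls in TP63-gated and ISG15-gated cells (−0.60 and −0.54) turned to 0.26 and 0.34 against the mean of 4 and were not called there. The ISG15 call was also lost with DESeq2 and when any of 6 single sums was left out, and the TP63 call without its blastoid 2 sum (−0.39), with a higher threshold for the gates (−0.46) and when cells of several gates were counted in each, which turned it to 0.046 (adjusted p = 0.810).

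CDX2 and EOMES, a caudal homeobox factor and a T-box factor, were rare in every group. CDX2 was at 3.91 and 7.79 CPM in COL3A1-gated cells (44 and 56 UMIs), 1.11 and 1.36 CPM in GABRP-gated cells (31 and 34 UMIs) and 0.819 and 0.783 CPM in POU5F1-gated cells (24 and 34 UMIs). The TP63-gated sums held 9 and 7 UMIs of it, the ISG15-gated sums 1 and 6 and the PAX6-gated sums 1 and 2. Both COL3A1-gated sums were above every other sum. CDX2 was detected in 2.73% of COL3A1-gated cells in blastoid 1 (95% exact binomial interval 1.42% to 4.72%) and 5.71% in blastoid 2 (3.47% to 8.77%), and in 0.118% to 1.498% of the GABRP, TP63 and POU5F1 groups. These intervals cover counting error only. CDX2 was higher in COL3A1-gated cells (3.66 ± 0.314, adjusted p = 1.27e-07) and in GABRP-gated cells (1.16 ± 0.347, adjusted p = 0.0117, and 1.97 against the mean of 4). The GABRP call was lost without the blastoid 2 sum of that gate (1.01). It was also lost with gates set at 2 thinned UMIs alone (0.61, adjusted p = 0.125). Counting cells of several gates in each lost it as well (0.63, adjusted p = 0.0652). In the droplets of few UMIs, CDX2 was at 0.610 CPM in blastoid 1, below this gate, and at 2.13 CPM in blastoid 2, above it. These droplet levels rested on 1 and 5 UMIs. Lower calls of CDX2 in TP63-gated (−1.38) and PAX6-gated cells (−2.90) rested on the few UMIs given above. The TP63 call was lost when any of 8 single sums was left out (−1.43 to −1.04) and against the mean of 4 (−0.67, adjusted p = 0.372). The PAX6 call was lost without the blastoid 1 sum of its gate (−2.58) and held against the mean of 4 (−2.26).

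EOMES was at 8.80 and 5.42 CPM in COL3A1-gated cells (99 and 39 UMIs) and at 5.50 and 7.03 CPM in POU5F1-gated cells (161 and 305 UMIs). In GABRP-gated cells it was at 1.11 and 0.802 CPM, and the TP63, ISG15 and PAX6 groups held 16 and 2, 3 and 6, and 3 and 2 UMIs. The COL3A1 and POU5F1 groups overlapped (difference 0.32, 95% interval −0.23 to 0.88, not called) and stood above the other 4. EOMES was higher in both against the mean of the others (3.26 ± 0.304, adjusted p = 3.12e-07, and 2.87 ± 0.252, adjusted p = 2.48e-07). It was also called lower in TP63-gated and PAX6-gated cells, on the few UMIs given, and the TP63 call was lost against the mean of 4. Without thinning, EOMES was found in 0.974% and 0.510% of PAX6-gated cells.

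Counted by gate, 6 of the 8 factors were called in POU5F1-gated cells where 56.1% of all genes were called, 7 in GABRP-gated cells (51.1% of all genes), 8 in TP63-gated cells (34.9%), 6 in ISG15-gated cells (14.4%), 7 in PAX6-gated cells (35.9%) and 8 in COL3A1-gated cells (55.8%). With the COL3A1 sums left out of the mean the counts were 6 in POU5F1-gated (56.3% of all genes), 5 in GABRP-gated (51.0%), 3 in TP63-gated (28.6%), 1 in ISG15-gated (5.84%) and 5 in PAX6-gated cells (35.6%). By direction against the mean of 4, all 5 calls in GABRP-gated cells were higher (HAND1, CDX2, ELF5, GATA3 and TFAP2A, where 27.0% of all genes were higher), all 3 in TP63-gated cells were higher (ELF5 0.92, TFAP2A 0.39 and GATA2 0.18, 14.6% of all genes), and all 5 in PAX6-gated cells were lower (HAND1, EOMES, CDX2, ELF5 and GATA3, 18.8% of all genes). POU5F1-gated cells had TFAP2C and EOMES higher and TFAP2A, ELF5, HAND1 and GATA3 lower.

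Between pairs of gates, the number of factors that differed was set beside the share of all genes that did. POU5F1-gated cells differed in 6 factors from GABRP-gated (59.2% of all genes), 8 from TP63-gated (54.1%), 6 from ISG15-gated (36.4%), 5 from PAX6-gated (42.5%) and 7 from COL3A1-gated cells (57.9%). GABRP-gated cells differed in 5 from TP63-gated (33.9%), 4 from ISG15-gated (30.0%), 6 from PAX6-gated (49.5%) and 8 from COL3A1-gated cells (56.0%). TP63-gated cells differed in 1 factor, ELF5, from ISG15-gated (8.66%), in 3 from PAX6-gated (27.4%) and in 8 from COL3A1-gated cells (52.7%). ISG15-gated cells differed in 2 from PAX6-gated (20.1%) and in 8 from COL3A1-gated cells (46.8%), and PAX6-gated from COL3A1-gated cells in 8 (49.7%). By factor, HAND1 and ELF5 differed in 14 of 15 pairs each, TFAP2A in 12, GATA3 in 11, EOMES in 10, TFAP2C and CDX2 in 9 and GATA2 in 6, of which 5 were the pairs with COL3A1-gated cells. Since 8.66% to 59.2% of all genes differed in each pair, many other genes also differed in several pairs. How many pairs a typical gene differed in was not computed, so the counts by factor are descriptions.

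Genes with other trophectoderm roles were counted from lists that leave out the 8 factors and the gate genes. Of all genes tested, 27.3% were higher and 23.8% lower in GABRP-gated cells, 18.2% and 16.7% in TP63-gated, 9.16% and 5.23% in ISG15-gated, 17.3% and 18.6% in PAX6-gated, 28.3% and 27.8% in POU5F1-gated and 28.1% and 27.7% in COL3A1-gated cells. Against the mean of 4 these shares were 27.0% and 24.0% in GABRP-gated, 14.6% and 13.9% in TP63-gated, 4.31% and 1.53% in ISG15-gated, 16.7% and 18.8% in PAX6-gated and 28.2% and 28.1% in POU5F1-gated cells. Of 14 tested genes among 15 other trophectoderm regulators, 13 were higher and 0 lower in GABRP-gated cells (12 and 0 against the mean of 4), with a median log2 fold change of 0.85 beside −0.01 over all genes. TFAP2B (1.86), another AP-2 factor, PPARG (1.54), a nuclear receptor of placental development, and KLF5 (1.51), a zinc finger factor of the early trophectoderm, changed most there. In TP63-gated cells 11 were higher and 0 lower (5 and 0 against the mean of 4), and in COL3A1-gated cells 2 were higher and 10 lower, with GRHL2 (−2.91), an epithelial factor, DLX3 (−2.67), a homeobox factor, and PPARG (−2.63) lowest. ISG15-gated cells had 6 higher and 1 lower (1 and 0), PAX6-gated cells 3 and 7 (0 and 8) and POU5F1-gated cells 2 and 6 (0 and 10). Of 15 tested genes of trophectoderm structure and secretion, 13 were higher and 0 lower in GABRP-gated cells (13 and 0 against the mean of 4), led by CYP17A1 (3.82), an enzyme of steroid synthesis, SFN (2.46), an epithelial 14-3-3 protein, and KRT7 (2.37), a keratin of simple epithelia. Their counts were 12 and 1 in TP63-gated (7 and 1), 11 and 0 in ISG15-gated (6 and 0), 3 and 7 in PAX6-gated (2 and 11), 4 and 8 in POU5F1-gated (1 and 9) and 1 and 13 in COL3A1-gated cells, where KRT7 (−2.81), the junction protein CLDN4 (−2.61) and the cadherin CDH1 (−2.61) were lowest. These counts leave out part of the list, of which 18 genes were in the matrix and HSD3B and PAG2 were not. IL1B2 was at 0 UMIs in every group, IFNG in each group but the GABRP-gated one, and AQP3 in ISG15-gated and PAX6-gated cells.

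Markers of other tissues moved with several of the factors. Amnion genes summed to 988 and 910.5 CPM over 9 genes in GABRP-gated cells and to between 136 and 481 CPM in the other 5 groups, with 7 of 9 higher (TAC3 5.60, VTCN1 4.17 and WNT6 2.75). Cardiac and mesenchyme genes summed to 3318 and 3572 CPM over 12 genes in COL3A1-gated cells and to between 82.2 and 266 in the others, with 11 of 12 higher and none at 0, beside the high HAND1 there. Hypoblast genes summed to 815 and 861 CPM over 12 genes in the same cells and to between 118 and 461 in the others, with 7 of 11 higher (NID2 5.51, GATA6 5.31 and GATA4 5.29) and FOXA2 at 0 UMIs. Epiblast genes summed to 887 and 985 CPM over 13 genes in POU5F1-gated cells and to between 101 and 349 in the others, with 12 of 12 higher (NODAL 5.10, NANOG 4.47 and TDGF1 4.37). Primitive streak genes, from another known place of EOMES, summed to 13.3 to 33.6 CPM over 8 genes in all groups, with 2 of 6 higher in POU5F1-gated and 1 of 6 in COL3A1-gated cells, where 28.3% and 28.1% of all genes were higher. These were GSC (2.44, a homeobox factor of the organizer) and WNT3 (0.70, a streak ligand) in POU5F1-gated and WNT3 (1.004) in COL3A1-gated cells, while the ligand gene FGF8 was lower in both (−1.11 and −1.55), and T was at 0 UMIs in the COL3A1, TP63, ISG15 and PAX6 groups. Of the remaining lists, 8 of 9 interferon genes were higher in ISG15-gated cells, 8 of 11 neural and placode genes in PAX6-gated cells and 3 of 6 surface ectoderm genes in TP63-gated cells (1 of 6 against the mean of 4). The part of these cell types in the levels of the 8 factors was not tested.

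Co-detection within single cells was described for the 28 pairs of factors as the number of cells with a thinned UMI of both, divided by the number expected if the genes were independent in that library. Of the 6 common factors, HAND1 is given apart, a division made after the ratios were seen. The other 5 (GATA2, GATA3, TFAP2A, TFAP2C and ELF5) were found together more often than that in all of their 10 pairs and both libraries, at ratios of 1.04 to 1.21. GATA2 and TFAP2C had ratios of 1.21 and 1.20 in blastoid 1 and 2, GATA2 and GATA3 1.18 and 1.18 (2087 and 2167 cells), and GATA3 and TFAP2A 1.12 and 1.15 (4049 and 4309 cells). A ratio cannot exceed 1 over the larger share, so the last pair could reach no more than 1.25 and 1.30. When the expected number was computed within each group of cells and added up, the 10 pairs stayed at 1.04 to 1.17. Cells of 1 library share depth and free RNA, so the ratios are descriptions.

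EOMES went the other way with the same 5 factors. All 5 pairs were below 1 in both libraries, at 0.219 to 0.722, and at 0.303 to 0.839 within groups. TFAP2A and EOMES shared 38 cells in blastoid 1 and 51 in blastoid 2 where 104 and 123 were expected, and ELF5 and EOMES shared 12 and 24 (ratios 0.219 and 0.374). With HAND1, EOMES was above 1 in both libraries (1.59 and 1.12, 77 and 52 cells). HAND1 was also found with ELF5 more often than expected (1.25 and 1.31, or 1.15 and 1.14 within groups) and with GATA3 at ratios of 1.025 and 1.102. With TFAP2C it was found less often (0.860 and 0.874), and with GATA2 (0.909 and 0.964) and TFAP2A (0.941 and 0.990) the ratios were also below 1. Within groups these 3 pairs were close to 1, at 0.979 and 0.988 for TFAP2C, 1.0005 and 1.06 for GATA2 and 0.979 and 1.003 for TFAP2A. CDX2 and HAND1 had the highest ratio of the 28 pairs in each library (1.90 and 2.47, 35 and 56 cells), at a mean of 1.48 within groups. This ranking depends on how common each factor was, since that pair could reach 2.66 and 3.44 and pairs with TFAP2A only 1.25 and 1.30. The odds ratio compares the odds of 1 factor in cells with and without the other. It was 4.18 and 6.34 for CDX2 and HAND1, 5.14 and 4.84 for TFAP2A and ELF5, and 4.73 and 5.03 for GATA3 and TFAP2A. CDX2 was also above 1 in both libraries with GATA2 (1.09 and 1.16) and GATA3 (1.03 and 1.12). With TFAP2A (0.788 and 0.798) and TFAP2C (0.691 and 0.979) it was below 1. Over the 28 pairs the median of the mean ratios was 1.07, with 16 pairs above 1 and 10 below 1 in both libraries.

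**Figure D2:**
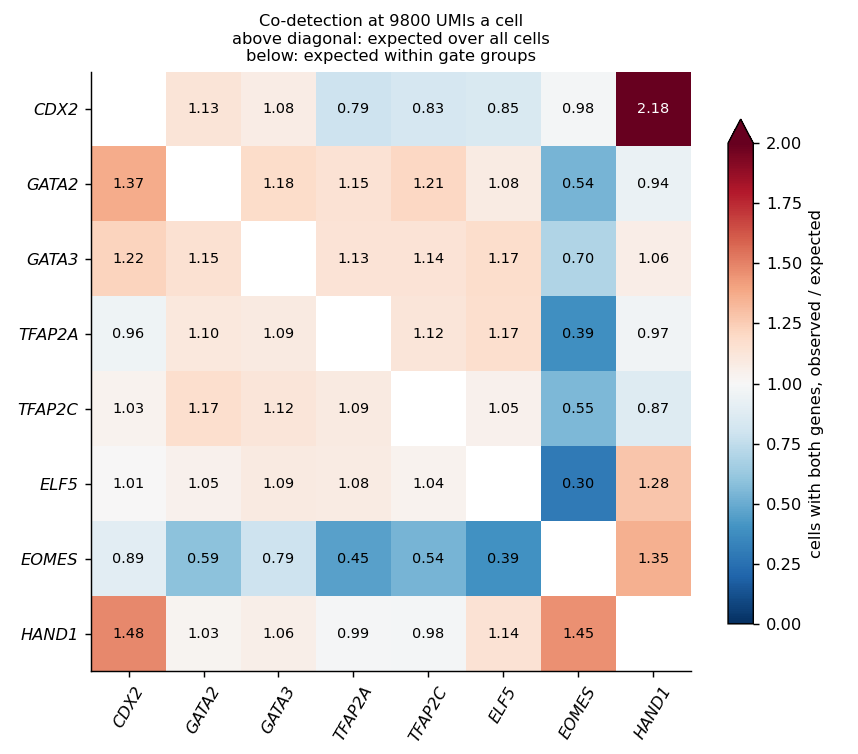
Cells with a UMI of both factors divided by the number expected from independence, as the mean of 2 blastoid libraries at 9800 UMIs per cell, with red above 1 and blue below 1. Ratios above the diagonal take the expected number over all cells and those below it within gate groups. Pairs of GATA2, GATA3, TFAP2A, TFAP2C and ELF5 lay above 1 and EOMES lay below 1 with each of them on both sides.

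A cell held on average 2.90 of the 8 factors in blastoid 1 and 2.73 in blastoid 2 at 9800 UMIs. Cells with 4 or more made up 35.2% and 30.8%, beside 29.7% and 24.5% if the factors were independent, and cells with none made up 4.26% and 7.03%, beside 1.20% and 1.76%. No cell held all 8. Among the 6 gates, GABRP-gated cells had the most cells with 4 or more (62.5% and 61.3%), followed by TP63-gated (44.8% and 35.5%), ISG15-gated (33.5% and 32.1%), POU5F1-gated (26.2% and 18.5%), PAX6-gated (18.5% and 14.8%) and COL3A1-gated cells (3.41% and 3.003%). Cells that passed several gates, with 55.0% and 51.7%, lay between GABRP-gated and TP63-gated cells, and cells that passed no gate had 28.6% and 26.7%. Cells with none of the factors were most common among POU5F1-gated cells (12.5% and 20.1%) and made up 0.499% or less of GABRP-gated and of TP63-gated cells in each library. GATA2, GATA3 and TFAP2A were found together in 25.4% ± 1.51 of all cells, in 31.2% ± 2.42 of TP63-gated and in 1.58% ± 0.310 of COL3A1-gated cells. With TFAP2C added, the 4 were found together in 8.46% ± 0.456 of all cells and in 10.8% ± 2.39 of POU5F1-gated cells. GATA3, TFAP2A and ELF5 were found together in 51.4% of GABRP-gated, 27.5% of all and 0.868% of COL3A1-gated cells.

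**Figure D3:**
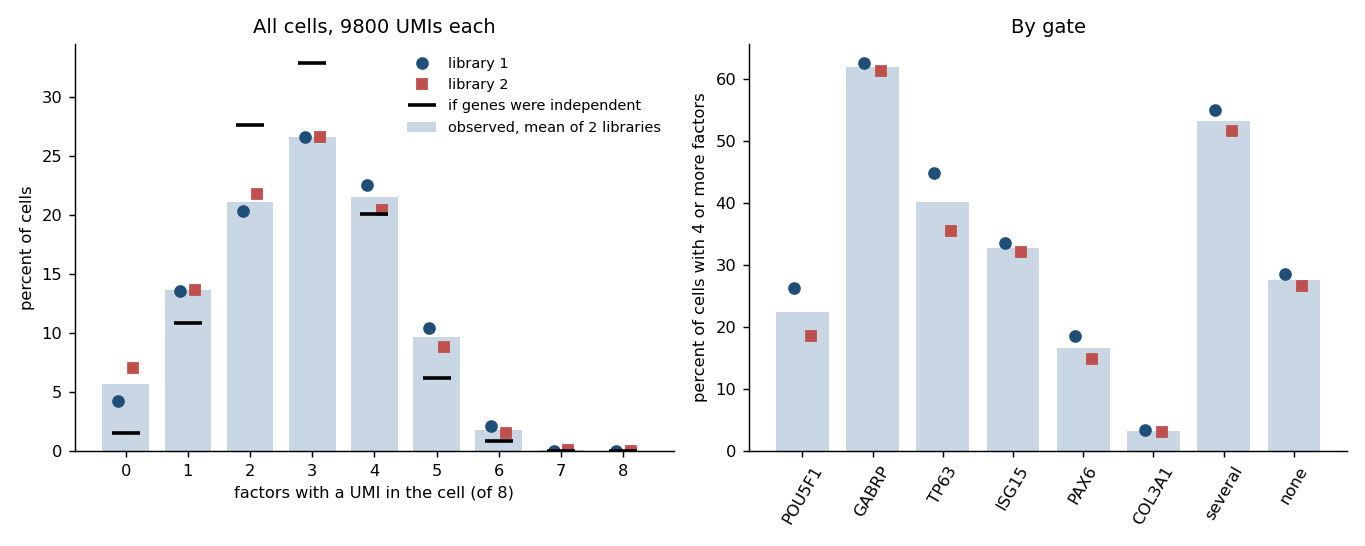
Left, percent of cells with a UMI of 0 to 8 of the factors at 9800 UMIs per cell, with points for the 2 blastoid libraries, bars for their mean and black lines for independent genes. Right, percent of cells with 4 or more factors by gate. Cells with 0 and with 5 factors were more common than under independence, and GABRP-gated cells had the highest share with 4 or more.

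POU5F1-gated cells were not uniform in these factors. DNMT3B, a DNA methyltransferase of the primed epiblast, divided them into 364 and 542 cells without a thinned UMI of it and 221 and 453 cells with 2 or more. GATA3 was at 165 and 156 CPM in the cells without DNMT3B and at 48.2 and 37.3 in those with it. TFAP2A was at 249 and 237 CPM against 88.6 and 69.0, GATA2 at 88.6 and 84.8 against 36.7 and 24.8, and ELF5 at 55.0 and 48.0 against 17.3 and 11.5. These 4 factors were higher without DNMT3B in both libraries, with no overlap. TFAP2C differed least (78.6 and 69.7 CPM against 49.2 and 36.5), and EOMES had the opposite order (2.80 and 1.78 CPM against 9.63 and 13.6). The cells without DNMT3B also held less POU5F1 (243 and 258 CPM against 493 and 584) and SOX2 (47.5 and 56.6 against 120 and 125). They were shallower as well (median 35238.5 and 29826 UMIs against 43609 and 38047). The part of depth in these differences was not tested. Among GABRP-gated cells divided by TAC3, a division added after seeing the data, HAND1 was at 238 and 196 CPM without TAC3 and at 451 and 389 with 2 or more UMIs of it, while GATA2 was at 64.2 and 69.2 against 40.5 and 29.3.

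**Figure D4:**
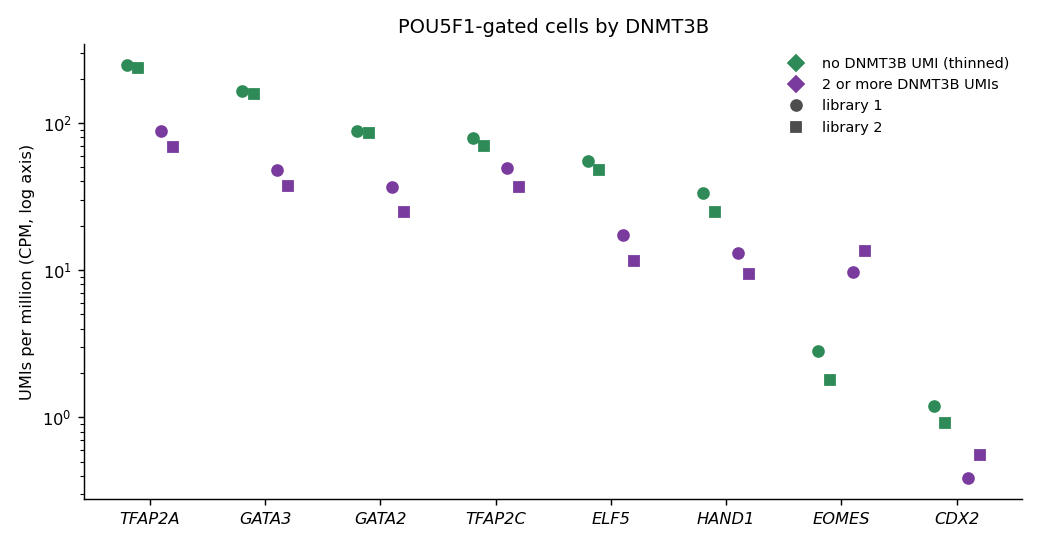
Level of the 8 factors (CPM, log axis) in POU5F1-gated cells with 0 and with 2 or more UMIs of DNMT3B at 9800 UMIs per cell, with 1 point per blastoid library. GATA2, GATA3, TFAP2A, TFAP2C, ELF5 and HAND1 were lower and EOMES was higher in the cells with DNMT3B. CDX2 had lower CPM there (0.385 and 0.551 against 1.19 and 0.918). Its share of cells was higher there (0.905% and 0.883% against 0.275% and 0.738%), so its direction is open.

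Cells rich in a rare factor were few. At 3 or more UMIs of CDX2 before thinning there were 27 cells (13 and 14), of which 7 were COL3A1-gated, 3 POU5F1-gated, 3 GABRP-gated, 1 ISG15-gated, 1 passed several gates and 12 passed none. HAND1 was at 669 and 754 CPM in these cells beside 132 and 88.3 CPM in all cells, and COL3A1 at 526 and 447 beside 128 and 73.3. GATA2 was at 108 and 121 CPM beside 63.9 and 61.3, and GATA3 at 172 and 184 beside 132 and 124. These 4 genes were thus above their levels in all cells. TFAP2A (227 and 208 CPM beside 288 and 264) and ELF5 (36.7 and 2.12 beside 92.8 and 87.1) were below theirs. At 3 or more UMIs of EOMES there were 158 cells (79 in each library), of which 47 were POU5F1-gated, 18 COL3A1-gated and 83 passed no gate. POU5F1 was at 187 and 486 CPM in them, HAND1 at 404 and 122, TFAP2A at 66.0 and 32.4 and ELF5 at 17.3 and 3.72. The primitive streak genes T (0.332 and 0 CPM, beside 0.0472 and 0.0302 in all cells) and MIXL1 (0.996 and 0.338, beside 0.0354 and 0.0189) rested on very few UMIs in them. POU5F1 and HAND1 were thus both above their levels in all cells in each library (63.3 and 95.9 CPM for POU5F1), while TFAP2A and ELF5 were below theirs. COL3A1 was at 359 and 89.6 CPM, beside 128 and 73.3 in all cells. These levels pool cells of several groups. After thinning, 22.8% and 51.9% of the cells held POU5F1 and 70.9% and 39.2% held HAND1. Whether the same cells held both was not tested.

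The genes whose levels ran most like each factor were sought over the 12 sums by Pearson's correlation of log2(CPM + 1) among 9470 genes of at least 10 CPM on average, with no p since the sums of 1 library and the 6 groups are shared. They were PRRG4, ESRP1 and GRTP1 for GATA2, CDS1, STX3 and SH3YL1 for GATA3, LOC102162336, SLC16A1 and KLHL13 for TFAP2A, and RRM2B, LOC106507269 and MAP7 for TFAP2C. For ELF5 they were AKAP7, WNT6 and UPTI, for HAND1 LOC100514494, CD99 and CARD19, for CDX2 CMTM3, GJA1 and ARPC2, and for EOMES COX17, NDUFB1 and SEC61G. The highest correlation for each factor lay between 0.976 (EOMES with COX17) and 0.997 (TFAP2A with LOC102162336).

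In pESCs the FPKM of all transcripts of a gene were summed, a level per length of transcript, in the 3 libraries whose columns are named IVFP25, PA_4P7 and PAP25. The labels call the libraries pESC-1, pESC-2 and pESC-3 and do not tie them to these names. The name IVFP25 begins with the usual letters for in vitro fertilization, while the study gives parthenogenetic blastocysts as the source, and the origin of this library could not be settled here. The names also do not all end in the same number, which the labels do not explain, so the SD over the 3 libraries covers any such difference as well. EOMES was at 3.10, 5.04 and 10.9 FPKM in these libraries (mean 6.33 ± 4.03, SD, n = 3) and TFAP2C at 4.80, 8.20 and 3.61 FPKM (5.53 ± 2.38). These 2 factors were the highest of the 8 in IVFP25 and PA_4P7, and their own ranges overlapped. GATA3 was at 0.339, 0.122 and 3.97 FPKM, GATA2 at 0.386, 0.201 and 0.988, and ELF5 at 0.189, 0.130 and 1.04. TFAP2A stayed at 0.120, 0.0845 and 0.133 FPKM, CDX2 was at 0.0670, 0 and 0.125, and HAND1 was listed at 0 in IVFP25 and PA_4P7 and at 0.143 in PAP25. For scale, POU5F1 was at 639, 506 and 432 FPKM. The gate gene GABRP was at 48.2, 51.9 and 21.3 FPKM, above each of the 8 factors, so pESCs also held its RNA. PAP25 held the highest value of 7 of the 8 factors (TFAP2C was highest in PA_4P7), and 36.5% of 20509 gene symbols above 0 in a library were highest in it. The number of factors at 1 FPKM or more was 2 in IVFP25, 2 in PA_4P7 and 4 in PAP25. In bulk samples, fewer cells of a type and less RNA per cell cannot be told apart. The depth of these libraries is unknown, and FPKM and CPM are different units, so no test was run between pESCs and blastoids.

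**Figure D5:**
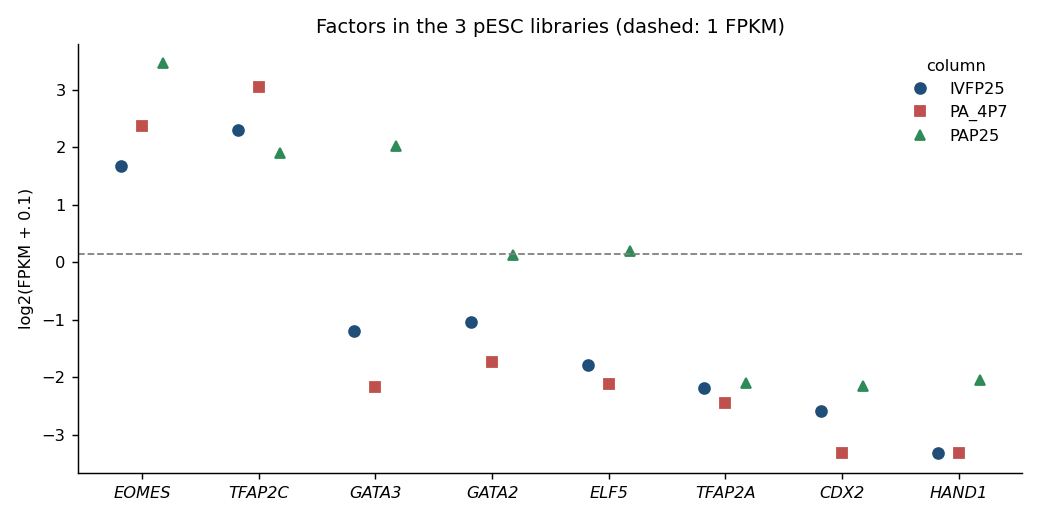
Level of the 8 factors in the 3 pESC libraries as log2(FPKM + 0.1), with 1 point per library and a dashed line at 1 FPKM. EOMES and TFAP2C lay above 3 FPKM in each library, and GATA3 reached 3.97 FPKM in PAP25 against 0.339 and 0.122 in the others.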

How the data were processed

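The authors counted UMIs with Cell Ranger 7.1.0 on susScr11 (Seurat 4.3.0 is also listed in the submitters' processing notes), and deposited the UMI counts of all 3364747 and 3442770 barcodes without scaling. For pESCs the authors used Trim Galore 0.6.4, HISAT2 2.2.1 and StringTie 2.2.1, and deposited an FPKM for each RefSeq transcript. The 8 factors and all gene lists were chosen with earlier results of these data known.

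Here FPKM were summed per gene symbol, with no test. Cells were thinned to 9800 UMIs (seed 42). UMIs of the unthinned cells were summed per library and gate (12 sums), filtered by filterByExpr, normalised by TMM and put through edgeR 4.0.16 (quasi-likelihood test, R 4.3.3) in 1 fit that was checked on simulated counts, with Benjamini-Hochberg adjustment and a threshold of 0.05. DESeq2 1.42.0 was an alternative. All 8 factors passed the filter. The 6 sums of a library come from 1 preparation, so the library number pairs them, and their deviations from the gate means correlated at 0.0314 to 0.185 between gates over 17093 genes. The alternatives include the library as a block in that fit. Scrublet (scanpy 1.11.5) marked 1 and 0 cells as doublets, under 0.5%, and doublets were kept. The rates expected from the cell numbers were 5.90% and 6.54%, so this marking may have missed doublets. In an alternative the 434 and 535 barcodes of highest score were left out. Named genes are the 8 factors, the 6 gate genes, at most 3 called genes of largest change per list and gate, and the 3 genes most like each factor. FOXA2, T, MIXL1, IL1B2, IFNG and AQP3 are named besides for their few or absent UMIs. HSD3B and PAG2 are named as absent from the matrix, and DNMT3B and TAC3 as genes that divide gated cells. Promoters were read from the RefSeq annotation of Sscrofa11.1, the build of the files.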

Additional observations from a re-analysis of the deposited data

How the results depend on the processing

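Of 48 tests of a factor in a gate, 42 were called and 24 of these calls held under every alternative run for them. Each gate had 23 alternatives except COL3A1, which had 22. Leaving COL3A1 out of the mean did not apply to its own calls. The fit with the library as a block changed no call, and its counts were 6, 7, 8, 6, 7 and 8 factors in the POU5F1, GABRP, TP63, ISG15, PAX6 and COL3A1 gates. Leaving out each sum in turn gave 6 to 7, 6 to 7, 6 to 8, 3 to 6, 6 to 7 and 8 factors in the same order. Without ISG15 replicate 1 or 2 the ISG15 count was 3. Leaving the COL3A1 gate out of the mean, chosen after seeing the data, gave 3 factors in the TP63 gate and 1 in the ISG15 gate and turned the direction of 12 values called with or without it, by its construction: GATA2 was at −0.15 (POU5F1) and −0.083 (PAX6), GATA3 at −0.039 (TP63), −0.041 (ISG15) and −0.28 (PAX6), TFAP2A at −0.020 (PAX6), TFAP2C at −0.12 (GABRP), −0.24 (TP63), −0.14 (ISG15) and −0.18 (PAX6), and HAND1 at 0.26 (TP63) and 0.34 (ISG15). It also turned 2 values called in neither case, EOMES in the GABRP gate (−0.11 to 0.57) and CDX2 in the ISG15 gate (−0.70 to 0.038). With cells of several gates counted in each, HAND1 in the TP63 gate was at 0.046, and the cause was not tested. With total UMIs alone GATA3 was called higher in PAX6-gated cells (0.18). The median co-detection ratio was 1.11 without replicate 1 and 1.06 without replicate 2. Cells with 4 or more factors made up 12.1% at 5000 UMIs and 69.1% without thinning beside 33.0%, and 8 and 25 combinations of factor and gate reached 50% of cells beside 14, or 13 to 14 when 1 library was left out, since fewer or more UMIs per cell were counted. In pESCs 1 factor reached a mean of 1 FPKM on NM_ transcripts alone and 6 reached a minimum of 0.1 FPKM, beside 3, or 2 to 3 when 1 library was left out. EOMES and TFAP2A have no NM_ transcript in the data, so they could not be counted on NM_ transcripts alone. Depth limits CDX2 and EOMES, whose calls in the TP63 and PAX6 gates rest on few UMIs.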
